A study of Mus musculus with 7 samples.

Results

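Iscu and 7 partner genes that build iron-sulfur clusters in mitochondria were followed in sorted bone marrow stem and progenitor cells of mice made to delete Jmjd1c in blood cells. The 8 genes are Iscu, Nfs1, Lyrm4, Hscb, Glrx5, Isca1, Isca2 and Nfu1, found by symbol among the 39179 gene IDs of the deposited table, and all 8 were measured well enough to be tested among 12813 genes. Iscu was chosen by its measured values in this very comparison, where it was among the genes with the largest rise, and the partners because they work with it. The question was whether the partners shared that rise. The change of Iscu is therefore given as a description, without a p-value.

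The cells were LSK cells, which lack lineage markers and carry Sca-1 and Kit, from mice of strain C57/BL6 aged 7 weeks. The Jmjd1c group has 3 libraries from Jmjd1c f/f Vav1Cre mice, where the Vav1 promoter drives Cre in blood cells from early development on, to delete the floxed gene across the blood system. The control group has 4 libraries from mice with Vav1Cre, for which no floxed allele is named. Both groups thus carried the Cre transgene, and nothing states that each library came from an animal of its own, so p-values reflect only how these libraries varied, and that variation may be technical. The RNA was amplified with a kit for very small inputs before sequencing.

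Iron-sulfur clusters are small inorganic cofactors that carry electrons in the respiratory chain and also serve lipoate synthase, ferrochelatase, DNA polymerases and helicases. In mitochondria the cysteine desulfurase NFS1, held in its active form by the small LYR-motif protein LYRM4, delivers sulfur to the scaffold protein ISCU, on which the cluster forms with iron and electrons from ferredoxin. The co-chaperone HSCB and its partner HSPA9 release the cluster to the glutaredoxin GLRX5, and ISCA1, ISCA2 and NFU1 take part in making and delivering the larger clusters. Erythroid cells need much of this output for haem, and loss of GLRX5 is known to cause a sideroblastic anaemia in humans.

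Iscu lies on mm10 chromosome 5, 113772748 to 113778288, plus strand, and a processed copy of its spliced transcript, the pseudogene Gm16437, lies on chromosome 19, 7668287 to 7668790, plus strand. The copy matched 421 bases of the Iscu transcript at 98.34% identity, with 7 mismatches and no gap, beginning at the start codon. The first 200 matching bases are shown for both, 5′ to 3′ in GENCODE M21 transcripts, with the 5 differing bases in capitals, because a short read from the lower-case runs could come from either place.
Iscu: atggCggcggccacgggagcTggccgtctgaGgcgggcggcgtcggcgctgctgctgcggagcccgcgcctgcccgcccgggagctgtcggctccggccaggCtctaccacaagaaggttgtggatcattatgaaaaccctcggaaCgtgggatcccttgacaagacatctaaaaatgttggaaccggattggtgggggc
Gm16437: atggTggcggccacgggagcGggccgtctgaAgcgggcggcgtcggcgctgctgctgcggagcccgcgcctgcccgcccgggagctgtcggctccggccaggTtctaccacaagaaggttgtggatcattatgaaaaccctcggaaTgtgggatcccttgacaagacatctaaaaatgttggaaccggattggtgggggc
Of the distinct windows of 50 bases in the Iscu transcripts, 12.1% occurred unchanged in a transcript of another gene. Gm16437 itself held at most 2.1 normalized read counts in any library, in Jmjd1c 2, and none in 4 of the 7 libraries. How reads that fit both places were treated is not given in the sources used here, so the level of Iscu is uncertain in this stretch. Isca1 has a longer copy, AK157302 on chromosome 13 (21495223 to 21497146), annotated as protein coding, which matched 1914 of the 1942 bases of an Isca1 transcript at 98.95% identity and stood at 0.8 in Jmjd1c 1 and at 0 in the other 6 libraries. Of the 10721 distinct windows over all Isca1 transcripts, 14.2% were shared with another gene. The matched transcript of 1942 bases supplies only part of these windows, so its own share may be higher. The share was 8.53% for Nfs1, 3.24% for Lyrm4, 2.16% for Nfu1 and 0% for Hscb, Glrx5 and Isca2.

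Depth and sample composition bear on every value below. Reads assigned to genes ranged from 4416762 to 6253793 in the Jmjd1c libraries and from 4303712 to 6436519 in the control libraries. Each value is a count of reads scaled for the depth of its library, here called a normalized read count. The Jmjd1c transcript fell to 264 ± 26.3 in Jmjd1c libraries (SD, n = 3), against 488 ± 30.4 in control libraries (SD, n = 4; log2 fold change -0.89 ± 0.09, limma adjusted p = 0.00407). Which exons are floxed is not stated in the labels, so the remaining reads do not measure how many cells kept the gene. The LSK markers Kit, Ly6a and Cd34 were high in every library, with Kit at 4778 or more. Markers of mature cells were present too, such as S100a8 of neutrophils (2204 to 3048 in Jmjd1c, 3297 to 4651 in control) and the immunoglobulin gene Ighm (6269 to 18316 in Jmjd1c, 9421 to 12708 in control). The summed level of 9 LSK markers was 26350 to 29880 in Jmjd1c libraries and 25760 to 29540 in control libraries. Sums over 12 erythroid markers overlapped too, at 854 to 1126 in Jmjd1c and 793.7 to 1111 in control libraries, and none of the lists had a marker at 0 in every library. Within that sum the members differed: the erythroid regulator genes Gata1 (log2 fold change 0.46 ± 0.12, limma adjusted p = 0.0642) and Klf1 (1.23 ± 0.37, limma adjusted p = 0.102) had positive and the globin gene Hba-a2 (-0.83 ± 0.56, limma adjusted p = 0.436) a negative estimate, none past the threshold, all named after their values were seen. The macrophage (2699 to 4544 in Jmjd1c, 2967 to 11170 in control), B and plasma cell (9259 to 29120 in Jmjd1c, 18130 to 28170 in control) and T cell sums (387.5 to 657.8 in Jmjd1c, 575.8 to 734.5 in control) overlapped as well. The macrophage sum of 11170 was that of control 4, and the other controls lay at 2967 to 4271. Sums over 7 neutrophil markers (6617 to 9571 in Jmjd1c, 9613 to 12980 in control) and over 6 basophil and mast cell markers (2196 to 4621 in Jmjd1c, 5680 to 8802 in control) did not overlap. Their part in the results was not tested, and in bulk RNA fewer cells of a type cannot be told apart from less RNA per cell.

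The scaffold gene Iscu stood at 86.1, 147 and 216 normalized read counts in Jmjd1c 1, 2 and 3, against 45.6, 66.4, 35.0 and 42.8 in controls 1 to 4. All Jmjd1c libraries lay above all control libraries, and the spread was wide in the Jmjd1c group, whose highest value was that of Jmjd1c 3. These values rest on 104, 143 and 184 reads in the Jmjd1c libraries and on 57, 55, 30 and 49 reads in the control libraries. The means were 150 ± 65.0 in Jmjd1c libraries (SD, n = 3) and 47.4 ± 13.4 in control libraries (SD, n = 4), a ratio of 3.16. On the log2(value + 1) scale the difference was 1.58 ± 0.29 (SE), with a 95% interval of 0.95 to 2.21. Its size ranked 7 from the top of all 12813 genes tested. The difference ran from 1.27 without Jmjd1c 3 to 1.93 without Jmjd1c 1. At an adjusted p under 0.05 in limma, Iscu passed with all libraries and without Jmjd1c 1 or control 4. With any 1 of the other 5 libraries left out it did not pass. Nor did it pass in limma without the trend or with same-numbered libraries as blocks. In the other settings with all libraries it did, among them edgeR, DESeq2 and the correction for GC content and length. Because Iscu was picked for its values here, these outcomes are a description and do not test it. They also move with the number of genes that pass in each fit, 231 with all libraries but 3 without control 2. They are therefore no measure of how much Iscu itself rests on a library.

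**Figure D1:**
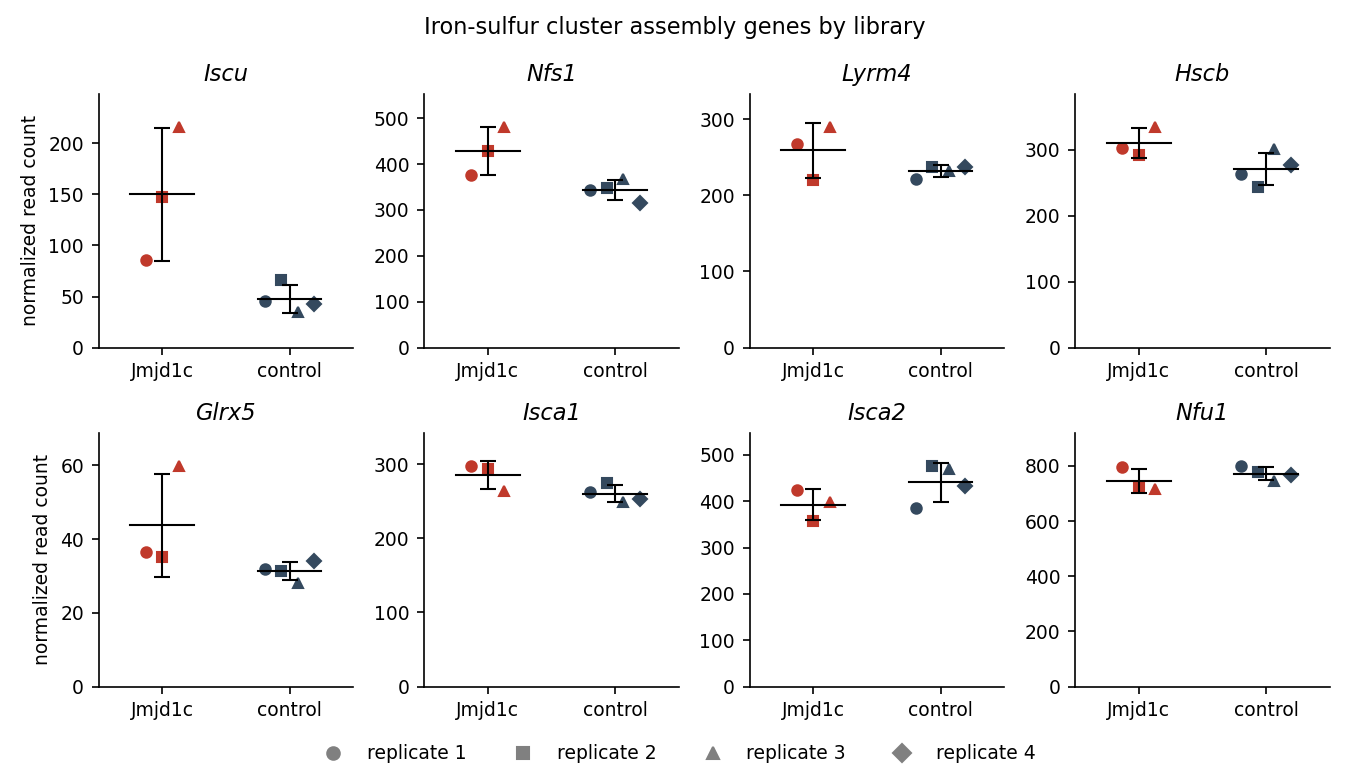
Normalized read counts (y axis, from 0) of the 8 assembly genes in the Jmjd1c and control libraries; each symbol is a library, the long bar is the group mean and the error bar the SD (n = 3 Jmjd1c, n = 4 control). Iscu has the widest separation, Nfs1 and Glrx5 separate by less, and the groups of the other 5 genes overlap.

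Of the 7 partners, 0 passed the threshold in limma (adjusted p under 0.05 over all genes), where 1.8% of all tested genes did (1.51% higher and 0.289% lower in Jmjd1c libraries). At an unadjusted p under 0.05 there was 1, Nfs1, where 19.7% of all tested genes had such a p. edgeR and DESeq2 on the recovered reads also called 0 of the 7, where they called 1.82% and 4.6% of all genes. Without Jmjd1c 1 the count was 1, again Nfs1 (log2 fold change 0.40, limma adjusted p = 0.0422), in a fit that called 4.96% of all genes. The median log2 fold change of the partners was 0.15, with 5 above 0 and 2 below (0.24 without Jmjd1c 2), against -0.0083 over all tested genes, of which 48.5% were above 0. The 95% intervals of the partners reached at most 0.92, for Glrx5, and thus ended below both the estimate for Iscu and the lower bound of its interval. That Iscu was picked for its size makes this last comparison a description.

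**Figure D2:**
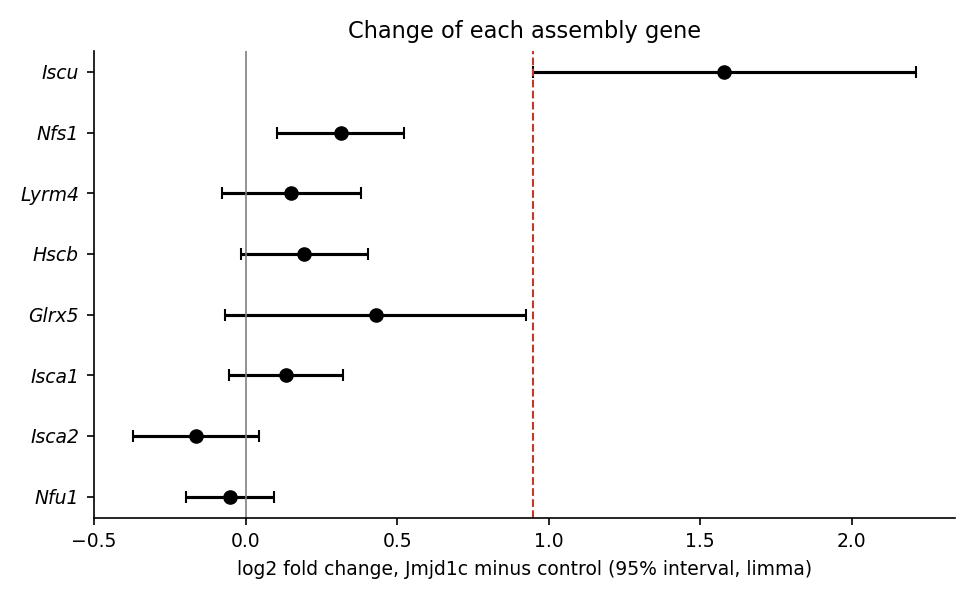
Log2 fold change of each assembly gene, Jmjd1c minus control (x axis; point, limma estimate; bar, 95% interval; 3 Jmjd1c and 4 control libraries). The dashed line marks the lower bound for Iscu, 0.95, and the bars of all 7 partners end to the left of it.

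Nfs1, the cysteine desulfurase that supplies the sulfur, was 376, 429 and 481 normalized read counts in Jmjd1c 1 to 3 and 344, 348, 367 and 316 in controls 1 to 4. The groups did not overlap, although Jmjd1c 1 lay close to control 3. Groups without overlap occurred in 16.8% of all tested genes, in 9.74% with Jmjd1c higher and in 7.1% with Jmjd1c lower. The means were 429 ± 52.9 in Jmjd1c libraries (SD, n = 3) and 344 ± 21.2 in control libraries (SD, n = 4). The log2 fold change was 0.31 ± 0.10 (95% interval 0.10 to 0.52, limma adjusted p = 0.113), so the difference did not pass over all genes. It stayed between 0.23 and 0.40 when any 1 library was left out.

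Lyrm4, which stabilises NFS1, had 267, 219 and 290 normalized read counts in Jmjd1c 1 to 3 and 221, 237, 232 and 237 in controls 1 to 4. Jmjd1c 2 was the lowest of all 7 libraries and Jmjd1c 3 the highest, so the Jmjd1c range enclosed that of the controls. Jmjd1c 1 and 3 lay above all controls. The log2 fold change was 0.15 ± 0.11 (95% interval -0.08 to 0.38, limma adjusted p = 0.445), and ran from 0.07 to 0.27 when 1 library was left out. The desulfurase and its stabilising partner were therefore not both separated between the groups.

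Hscb, the co-chaperone that hands the cluster on from ISCU, had 303, 292 and 335 normalized read counts in Jmjd1c 1 to 3 and 263, 243, 301 and 277 in controls 1 to 4. Only control 3 reached into the range of the Jmjd1c libraries. The means were 310 ± 22.3 in Jmjd1c libraries (SD, n = 3) and 271 ± 24.4 in control libraries (SD, n = 4), with a log2 fold change of 0.19 ± 0.10 (95% interval -0.02 to 0.41, limma adjusted p = 0.291). Corrected for transcript GC content and length, it was 0.35 (limma adjusted p = 0.0957).

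Glrx5, the glutaredoxin that receives the cluster, was low, at 36.4, 35.0 and 59.9 normalized read counts in Jmjd1c 1 to 3 and 32.0, 31.4, 28.0 and 34.1 in controls 1 to 4. The groups did not overlap, but Jmjd1c 1 and 2 lay within a few counts of control 4 and only Jmjd1c 3 stood clear. Between 24 and 51 reads lie behind each of these values. The log2 fold change of 0.43 ± 0.23 (95% interval -0.07 to 0.92, limma adjusted p = 0.316) was the largest among the partners and became 0.19 without Jmjd1c 3.

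The late-acting genes differed in sign. Isca1 had 298, 294 and 264 normalized read counts in Jmjd1c 1 to 3 and 262, 275, 249 and 253 in controls 1 to 4, with Jmjd1c 3 inside the control range. Its change on the log2 scale was 0.13 ± 0.09 (limma adjusted p = 0.415). Its product works as a pair with that of Isca2, which had 424, 357 and 398 normalized read counts in Jmjd1c 1 to 3 and 385, 477, 469 and 432 in controls 1 to 4. There the Jmjd1c values overlapped with control 1 and the log2 fold change was -0.16 ± 0.10 (limma adjusted p = 0.364). Nfu1, a carrier of the larger clusters, had 796, 723 and 717 normalized read counts in Jmjd1c 1 to 3 and 801, 777, 744 and 766 in controls 1 to 4. It was the most precisely measured member, with a log2 fold change of -0.05 ± 0.07 and a 95% interval of -0.20 to 0.09 (limma adjusted p = 0.705).

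Across the libraries, Jmjd1c 3 held the highest value of Iscu, Nfs1, Lyrm4, Hscb and Glrx5, whereas the highest value of Isca1 was in Jmjd1c 1, of Isca2 in control 2 and of Nfu1 in control 1. On the log2(value + 1) scale relative to the control mean, Iscu stood at 0.88, 1.65 and 2.20 in Jmjd1c 1 to 3, while the mean of the 7 partners stood at 0.13, 0.04 and 0.26. Iscu thus exceeded that mean by 0.76, 1.61 and 1.94 in the Jmjd1c libraries, against 0.01, 0.50, -0.40 and -0.11 in controls 1 to 4. The excess over the partners therefore varied among the control libraries as well. Jmjd1c 3 was the shallowest Jmjd1c library, with 4416762 reads, and had the highest B and plasma cell marker sum of all libraries, 29120. The part of either in its values was not tested.

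**Figure D3:**
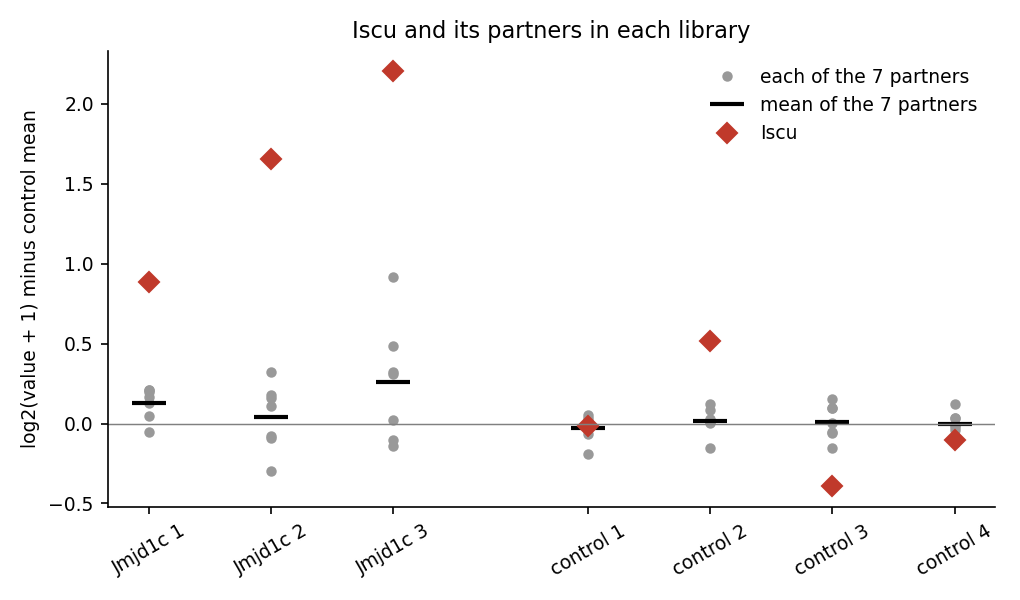
Log2(value + 1) minus the control mean (y axis) in each of the 7 libraries (x axis) for Iscu (diamonds), each of the 7 partners (grey points) and the mean of the partners (black bars). In every Jmjd1c library Iscu lies above every partner, and in control 2 it also does.

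Per kilobase of exon the genes spanned a wide range of levels. Hscb was highest, with 342 ± 24.6 normalized read counts per kilobase in Jmjd1c libraries (SD, n = 3) and 299 ± 27.0 in control libraries (SD, n = 4). Isca2 (214 ± 18.4 in Jmjd1c, 240 ± 22.8 in control) and Nfu1 (155 ± 9.08 in Jmjd1c, 160.1 ± 4.94 in control) followed in this scale. Lyrm4 (124 ± 17.3 in Jmjd1c, 111 ± 3.61 in control) and Nfs1 (119 ± 14.6 in Jmjd1c, 95.1 ± 5.87 in control) were neighbours whose Jmjd1c levels did not differ beyond their spread. Iscu had 68.8 ± 29.9 normalized read counts per kilobase in Jmjd1c and 21.8 ± 6.16 in control libraries. In control libraries that level lay next to Isca1 (26.7 ± 1.72 in Jmjd1c, 24.3 ± 1.08 in control), from which it did not differ beyond its spread, while in Jmjd1c libraries Iscu was above it. Glrx5 was lowest, at 11.9 ± 3.79 in Jmjd1c and 8.52 ± 0.69 in control libraries. The lengths are unions of all annotated exons, from 905 bases for Hscb to 10680 for Isca1, and the order of the genes depends on that choice. The longest protein-coding transcript of Isca1 has 1942 bases. That of Iscu has 1395, against a union of 2176. Both comparisons of Iscu with Isca1 thus rest on the union lengths, as transcript lengths would raise Isca1 far more than Iscu. Reads lost to copies would lower Iscu and Isca1.

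The 5 genes whose values were most like those of Iscu over the 7 libraries, by the root mean square difference of log2(value + 1) centred on the control mean, were Jak3 (0.25), Med30 (0.27), Marc2 (0.31), Mri1 (0.35) and Zbtb45 (0.38), out of 9659 genes with a mean of at least 50. Being chosen for likeness to Iscu, they share its separation of the groups by construction; Med30, for example, had 62.9, 128 and 151 normalized read counts in Jmjd1c 1 to 3 and 23.2, 39.8, 31.5 and 31.5 in controls 1 to 4. The nearest partner, Glrx5, differed from Iscu by 0.82 in this measure, Nfs1 by 0.91 and the other 5 partners by 1.02 to 1.23.

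The rest of the pathway was read in 5 further lists with 70 genes, of which 69 were tested; Dpyd, a pyrimidine-degrading enzyme, had no read in any library. In limma 0 of the 69 passed the threshold, and edgeR called 0 as well, whereas DESeq2 called 3, Pold1, Steap3 and Pcbp1, each with a positive change, in a fit that called 4.6% of all genes. In limma, 11 had an unadjusted p under 0.05, 10 higher and 1 lower in Jmjd1c libraries; these are 15.9% of the 69, against 19.7% of all tested genes, where 1524 were higher and 1005 lower. The median log2 fold change over the 69 was 0.03.

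The list of other mitochondrial assembly and export genes came closest to the partners, with a median log2 fold change of 0.15 and 12 of 14 genes above 0, where 48.5% of all tested genes were. Without Jmjd1c 3 this median was 0.083. Its smallest p-values were those of Fdx1, a ferredoxin that passes electrons, and of Hspa9, the mitochondrial chaperone that works with HSCB. Fdx1 had 66.2, 80.4 and 119 normalized read counts in Jmjd1c 1 to 3 and 35.2, 59.1, 65.3 and 56.8 in controls 1 to 4. The groups touched without overlapping, between Jmjd1c 1 and control 3, and the log2 fold change of 0.69 ± 0.25 did not pass (limma adjusted p = 0.157). Hspa9 was abundant and stood at 2211, 2509 and 2426 normalized read counts in Jmjd1c 1 to 3 and 2247, 2200, 1864 and 1932 in controls 1 to 4. Jmjd1c 1 lay within the control range there, and the log2 fold change was 0.21 ± 0.08 (limma adjusted p = 0.179).

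Cytosolic assembly genes, which build clusters for proteins outside mitochondria, had a median log2 fold change of 0.05 over 11 genes. Ndor1, which passes electrons to this machinery, had 234, 293 and 249 normalized read counts in Jmjd1c 1 to 3 and 201, 208, 176 and 213 in controls 1 to 4. The groups did not overlap, and the log2 fold change of 0.37 ± 0.11 did not pass (limma adjusted p = 0.099). Ciao2a, a targeting factor of the same machinery, stood at -0.11 ± 0.07 on the log2 scale (limma adjusted p = 0.376), which became 0.05 once corrected for GC content and length.

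Genes of proteins that carry the clusters showed a median near 0. The 15 mitochondrial ones had a median log2 fold change of 0.01. Uqcrfs1, the Rieske protein of the respiratory chain, had 773, 784 and 948 normalized read counts in Jmjd1c 1 to 3 and 662, 712, 632 and 706 in controls 1 to 4, a separation without overlap. The change on the log2 scale was 0.30 ± 0.09 (limma adjusted p = 0.0939). Mocs1, an enzyme of molybdenum cofactor synthesis, had one of 0.31 ± 0.12 (limma adjusted p = 0.194), or 0.15 once corrected for GC content and length. The 18 cytosolic and nuclear ones had a median of 0.03. Pold1, the catalytic subunit of a replicative DNA polymerase, had 990.5, 1208 and 944 normalized read counts in Jmjd1c 1 to 3 and 666, 908, 713 and 732 in controls 1 to 4. Its log2 fold change of 0.47 ± 0.11 narrowly missed the threshold (limma adjusted p = 0.0549) and was 0.20 under that correction. Cisd2, which encodes a membrane protein with a cluster, stood at 0.14 ± 0.06 on the log2 scale (limma adjusted p = 0.25).

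Genes of iron uptake, storage and sensing had a median log2 fold change of -0.04 over 11 genes, with 5 above 0, and this median was 0.044 once corrected for GC and length, and 0.01 without control 4. Steap3, the endosomal ferrireductase that readies iron for import, had 282, 362 and 292 normalized read counts in Jmjd1c 1 to 3 and 274, 171, 186 and 235 in controls 1 to 4. The lowest Jmjd1c library was just above control 1, and the log2 fold change was 0.54 ± 0.16 (limma adjusted p = 0.0955). Pcbp1, an RNA-binding protein that also serves as an iron chaperone, had one of 0.40 ± 0.12 (limma adjusted p = 0.0968).

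**Figure D4:**
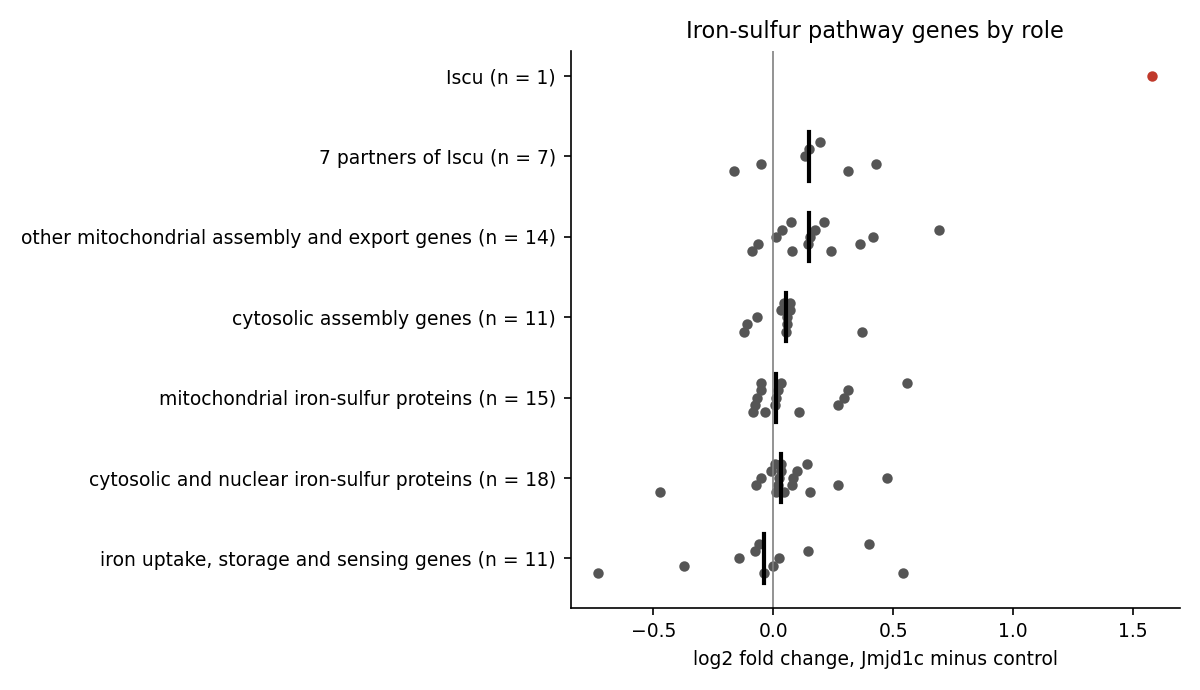
Log2 fold change, Jmjd1c minus control (x axis), of Iscu, its 7 partners and the tested genes of the 5 other pathway lists; each point is a gene, the vertical bar is the median of its list, and points are spread vertically only for visibility. Iscu, at 1.58, lies to the right of all other points, the highest of which is Fdx1 at 0.69.

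Of the 8 members, 5 start head to head with another protein-coding gene, with annotated starts on opposite strands no more than 1000 bases apart, as 17.3% of the 11371 tested protein-coding genes do. The starts of Iscu and Sart3, which encodes a factor of spliceosome recycling, lie 238 bases apart, and those of Hscb and the checkpoint kinase gene Chek2 202 bases apart. Isca2 and the lysosomal cholesterol carrier gene Npc2 are 99 bases apart. Nfs1 overlaps the mitochondrial membrane protein gene Romo1 by 148 exon bases, and Lyrm4 overlaps Fars2, a mitochondrial tRNA synthetase gene, by 115, so that without a stated strand setting reads in those bases cannot be assigned with certainty. Isca1 likewise shares 314 exon bases with the antisense RNA gene Etohd2, which had 117, 117 and 142 normalized read counts in Jmjd1c 1 to 3 and 130.4, 119, 138 and 140 in controls 1 to 4.

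Sart3 had 128, 146 and 146 normalized read counts in Jmjd1c 1 to 3 and 148, 117, 96.7 and 82.2 in controls 1 to 4. Control 1 was above all Jmjd1c libraries, and the log2 fold change was 0.36 ± 0.18, with a 95% interval of -0.03 to 0.76 (limma adjusted p = 0.289). Tmem119, the nearest protein-coding gene on the other side of Iscu, 15440 bases away, was low, at 20.7 to 31.9 in Jmjd1c and 19.2 to 40.2 in control libraries (log2 fold change 0.04 ± 0.29, limma adjusted p = 0.954), and its sign turned with the processing. Romo1, the partner of Nfs1 in position, had 298, 275 and 261 normalized read counts in Jmjd1c 1 to 3 and 282, 298, 303 and 264 in controls 1 to 4 (log2 fold change -0.05 ± 0.09, limma adjusted p = 0.816). Fars2 stood at -0.16 ± 0.10 on the log2 scale (limma adjusted p = 0.406), Chek2 at -0.08 ± 0.10 (limma adjusted p = 0.676) and Npc2 at -0.33 ± 0.14 (limma adjusted p = 0.212). Npc2 was 3093 in control 4 and 1973 to 2207 in the other controls, and its estimate ran from -0.405 to -0.189 when 1 library was left out. None of the 5 head-to-head neighbours passed in limma, where 1.8% of all tested genes did. Of the 5, 4 had an estimate below 0, as 6605 of all 12813 tested genes had. With 5 genes, neither count sets the neighbours apart.

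**Figure D5:**
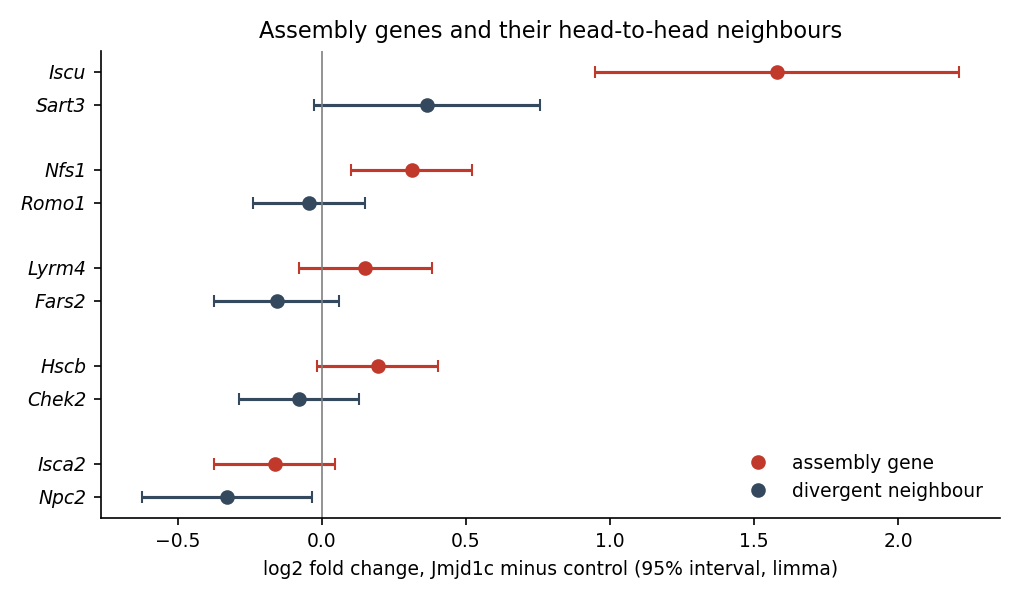
Log2 fold change, Jmjd1c minus control (x axis; point, limma estimate; bar, 95% interval), of the 5 assembly genes that start head to head with another gene (red) and of that neighbour (dark blue). In the 4 pairs other than that of Iscu, which was chosen by its size here, the bars of gene and neighbour meet for Lyrm4, Hscb and Isca2, and for Nfs1 they overlap narrowly.

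RefSeq windows from 250 bases before to 50 after the start (GRCm38.p6) matched 6 of the 8 members; Iscu and Hscb were not matched. The window of Nfs1 is shown because its gene separated between the groups while its neighbour Romo1, whose window covers 146 of the same bases, did not. That of Isca2 is shown because its gene lay on the other side of 0 and shares 257 bases with the window of Npc2. Both are 5′ to 3′ on the minus strand for Nfs1 (chr2:156144137-156144436) and the plus strand for Isca2 (chr12:84773020-84773319), with CCGGAAG, a core that ETS factors bind, in capitals on either strand.
Nfs1: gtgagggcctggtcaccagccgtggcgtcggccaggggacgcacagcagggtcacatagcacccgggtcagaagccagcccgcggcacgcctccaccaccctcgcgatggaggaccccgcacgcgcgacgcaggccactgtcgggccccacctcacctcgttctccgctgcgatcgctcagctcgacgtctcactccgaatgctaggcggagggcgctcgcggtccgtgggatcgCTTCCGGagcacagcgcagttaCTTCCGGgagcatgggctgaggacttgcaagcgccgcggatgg
Isca2: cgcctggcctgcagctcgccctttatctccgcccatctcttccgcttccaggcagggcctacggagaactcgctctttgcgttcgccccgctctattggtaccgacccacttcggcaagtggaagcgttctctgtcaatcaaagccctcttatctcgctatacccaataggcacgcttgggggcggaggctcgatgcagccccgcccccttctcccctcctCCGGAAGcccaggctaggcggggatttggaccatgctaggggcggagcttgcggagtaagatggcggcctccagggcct
CCGGAAG on either strand occurred in the windows of 3 of the 6 members, Nfs1, Isca1 and Isca2, and in 9.12% of 27025 windows of all genes, tested here or not. The windows of the neighbours Romo1 and Npc2 held it as well, in the bases they share with Nfs1 and Isca2. GGGCGG, the Sp1 box, occurred in 3 of 6 (Lyrm4, Isca2 and Nfu1, against 35.9% of all windows) and CCAAT in 4 of 6 (Glrx5, Isca1, Isca2 and Nfu1, against 37.9%). All were searched on both strands, and no match to one motif overlapped a match to another in the members' windows. Among the members, windows with CCGGAAG belong to Nfs1 and Isca1, with positive changes, and to Isca2, with a negative one.

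Base composition moved with the comparison as a whole, since genes higher in Jmjd1c libraries at the threshold had a median GC content of 55.4% in their longest transcript, against 49.4% over all tested genes. The members ranged from 47.0% (Isca2) to 53.6% (Iscu), with Glrx5 at 53.0% and Nfs1 at 51.9%. Once corrected for GC content and length, the log2 fold change of Iscu was 1.60 and that of Nfs1 0.32. In limma that fit called 0 of the 7 partners, and only 66 of the 12677 genes tested in it (0.521%).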

How the data were processed

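RNA-seq of sorted LSK cells gave 3 Jmjd1c and 4 control libraries. Trim Galore 0.2.8, STAR, HTSeq 0.6.1p1, DESeq 1.18.0 and build mm10 are named in the submitters' processing notes; the annotation release and strand setting were not given in the sources used here. The deposited signal values were, within each library, whole multiples of a single step (tolerance 0.01 of a read) for 100% of values above 0, as counts divided by a size factor are, so read counts were recovered for edgeR 4.0.16, which called 233 genes, and DESeq2 1.42.0. Symbols matched 37607 of 39179 IDs. Positions, lengths and GC content came from GENCODE M21 (GRCm38, the assembly of mm10), and copies from BLAST+ 2.17.0 (at least 100 bases and 97% identity).

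The test was limma-trend 3.58.1 (R 4.3.3) on log2(value + 1) for genes with at least 10 in at least 3 libraries, Jmjd1c minus control, with Benjamini-Hochberg adjustment over all 12813 genes and a threshold of 0.05. This scale understates the change of low genes. Errors are SDs for means and SEs for log2 fold changes. The steps were tested on simulated data. Members, lists and tests were chosen with earlier results of these data known. Named genes are the members, the pathway genes with the smallest p-values per list, neighbours and overlapping genes, and the 5 genes most like Iscu; others are said to be chosen after their values were seen. Alternatives are listed with their effect in the closing section.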

Additional observations from a re-analysis of the deposited data

How the results depend on the processing

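The 8 members kept their sign in each of the 19 alternative fits in which they were tested, except that Glrx5 was not tested with a minimum of 50. The count of called partners was 0 in all of these fits but the one without Jmjd1c 1, so that it ran from 0 to 1 over the fits without a library. The count of all called genes, 231, became 0 in limma without the trend (2213 genes at an unadjusted p under 0.05), 14 with the replicate block (7 higher, 7 lower), 66 when corrected for GC content and length, and 590 in DESeq2 (117 lower), and ran from 3 to 631 over the fits without a library: 3 without Jmjd1c 2, control 2 or control 3, 9 without Jmjd1c 3, 72 without control 1 and 631 without Jmjd1c 1. The background of 1.8% moves with it. Same-numbered libraries did not deviate together (correlations of -0.152, -0.0021 and 0.0174). The highest correlation between the groups was 0.315, for Jmjd1c 1 and control 4. With so few libraries these values cannot exclude a pairing. Under the replicate block 0 partners were called and the log2 difference of Iscu was 1.54. Signs turned for Ciao2a (0.051 after the GC and length correction) and for Tmem119 (-0.16 after that correction, -0.02 in edgeR, -0.017 in DESeq2, and -0.11 to 0.26 without each library), and for the median of the iron uptake, storage and sensing list (0.044 after that correction, 0.01 with the block and without control 4); the cause was not tested. Of the 69 other pathway genes, Pold1 alone was called without a filter on low values and with array weights, where 1.3% and 2.51% of all genes were called. With 24 to 51 reads per library for Glrx5 and 30 to 184 for Iscu, depth limits both.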
